A study of Mus musculus with 4 samples.

Results

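The miR-193 and miR-365 family comprised the mouse TaqMan assays named miR-193, miR-193a, miR-193b or miR-365, without star strands, and was chosen by name from the deposited table with earlier results of these data known. This rule took 3 of 517 mouse miRNA assays, mmu-miR-193b, mmu-miR-365 and mmu-miR-193, below miR-193b, miR-365 and miR-193. The members were measured in 2 samples of control bronchoalveolar stem cells (BASCs) and 2 samples of c-Myc depleted BASCs. All BASCs came from the lungs of ICR mice of 4 to 6 weeks of age. They were sorted as CD31neg, CD45neg, CD34pos and ScaIpos, and were plated on irradiated mouse embryonic fibroblasts (MEF). For later culture, the study's results name collagen-coated dishes and its methods name passages onto MEF. Whether MEF were present in the profiled samples is therefore not known. The c-Myc depleted cells were stable lines, made with lentiviral c-Myc shRNA and puromycin. The study used 2 c-Myc shRNA constructs and does not say which gave the profiled samples. It names the control both as a control shRNA and as wild type cells. The number of lines or animals behind the samples was not given in the sources used here, so the spread between samples may be technical. The cards hold no assay for c-Myc, so its depletion was not checked in these values.

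MicroRNAs are short RNAs that pair, mainly through their seed, with messenger RNAs and lower their translation or stability. The genes of miR-193b and miR-365 lie side by side and were reported as a cluster that takes part in brown fat and muscle cell fate. Cyclin D1, which drives entry into S phase, is a reported target of both miR-193b and miR-365, and miR-193b also targets the receptor Kit and the urokinase Plau. In the lung, miR-365 is known to target Nkx2-1, a transcription factor of distal lung epithelium. c-Myc is a transcription factor that induces some miRNAs, such as the miR-17 cluster, and represses many others.

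The mature sequences show which members could act on the same targets and which loci encode the RNA that each assay is named for. They are from RefSeq (GRCm38.p6), written 5′ to 3′, with the seed (bases 2 to 8) in capitals.
miR-193b-3p: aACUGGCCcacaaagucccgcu
miR-193a-3p: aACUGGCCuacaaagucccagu
miR-365-3p: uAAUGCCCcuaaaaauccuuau
miR-193b-3p and miR-193a-3p, the latter read by the assay named miR-193, were identical at 19 of 22 positions. They differed by C9U, G20A and C21G (miR-193b-3p base first, positions counted from 1 at the 5′ end), none of them in the seed. Their seed, ACUGGCC, was held by no other name among the 1679 mature names of the table. The seed of miR-365-3p, AAUGCCC, was held by that miRNA alone and differed from the seed of miR-193b-3p at 2 positions.

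Each miR-193 gene has a miR-365 gene downstream of it on the same strand. Mature miR-193b-3p lies at chr16:13449570-13449591 (+), and Mir193b is followed by Mir365-1 after 4238 bases. Mature miR-193a-3p lies at chr11:79712009-79712030 (+), and Mir193a is followed by Mir365-2 after 14365 bases. The hairpins of both miR-365 genes are shown because they give the same mature RNA, in capitals, from different stems and loops.
Mir365-1: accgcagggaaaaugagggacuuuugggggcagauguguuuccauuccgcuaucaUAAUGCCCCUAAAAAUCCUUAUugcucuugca
Mir365-2: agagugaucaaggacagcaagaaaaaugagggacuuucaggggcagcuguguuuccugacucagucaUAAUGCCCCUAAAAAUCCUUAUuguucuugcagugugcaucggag
Mir365-1 spans chr16:13453840-13453926 and Mir365-2 spans chr11:79726400-79726511. By sequence, the miR-365 assay therefore sums the products of both loci, while miR-193b and miR-193 are each encoded at 1 locus. Whether the assays of miR-193b and miR-193, alike at 19 of 22 positions, also read each other's RNA was not tested. On chromosome 16, the annotated genes Gm32817 and Gm53058 span both Mir193b and Mir365-1, between the protein-coding genes Mrtfb and Parn. On chromosome 11, no annotated gene spans Mir193a and Mir365-2, which lie between Rab11fip4 and Utp6.

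All 3 members were read on card A, 1 of the 2 cards of 384 wells, with 1 well per sample, so there was no repeat well behind a value. The readout was CT, the number of PCR cycles a well took to cross the detection threshold. More RNA gives a lower CT, and a step of 1 cycle is about 1 on the log2 scale. ΔCT is CT minus the mean of the 4 U6 wells of the same card, and a log2 change is the fall in mean ΔCT from control to c-Myc depleted BASCs. Wells with a CT numbered 351 and 340 in control and 334 and 341 in c-Myc depleted samples, and 263 mouse miRNAs were detected. A miRNA was tested where its lowest ΔCT was below 10, which left 80 miRNAs. miR-193b and miR-365 passed this filter, and miR-193, with a lowest ΔCT of 13.1, did not.

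miR-193b was the member with the largest difference, 3.02-fold higher in c-Myc depleted BASCs, and miR-365 was 1.76-fold higher. miR-193, which shares the seed of miR-193b, had a level below the filter and a 1.47-fold difference. Its level had rank 166 in control and 160 in depleted cells among the 263 detected miRNAs. Since the family was chosen with this contrast known, these differences are a description. Whether the fit over all miRNAs called a member is given further on only beside the share of all miRNAs that it called, and is no evidence for the family.

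The CT of miR-193b was 28.7 and 29.0 in the control samples and 27.3 and 27.0 in the c-Myc depleted samples. After subtraction of U6, its ΔCT was 9.85 and 9.87 in control and 8.40 and 8.12 in c-Myc depleted BASCs. Both depleted samples were higher in RNA than both controls, as in 32 of the 80 tested miRNAs (40%). The gap between the groups was 1.45 cycles, against a largest difference of 0.28 cycles within a group. The mean ΔCT was 9.86 ± 0.0115 (SD, n = 2) in control and 8.26 ± 0.198 (SD, n = 2) in depleted cells, a log2 change of 1.60 with a standard error of 0.15. Against the control mean, the single depleted samples were 1.46 and 1.74 higher on the log2 scale. The log2 change of miR-193b had rank 5 from the highest among the 80 tested miRNAs.

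The CT of miR-365 was 28.6 and 29.0 in the control samples and 27.7 and 28.0 in the c-Myc depleted samples. Its ΔCT was 9.73 and 9.88 in control and 8.85 and 9.13 in c-Myc depleted BASCs. The groups did not overlap, which held in this direction for 32 of the 80 tested miRNAs (40%). The gap between the groups was 0.60 cycles, while samples of 1 group differed by up to 0.28 cycles. The mean ΔCT was 9.80 ± 0.110 (SD, n = 2) in control and 8.99 ± 0.196 (SD, n = 2) in depleted cells, a log2 change of 0.82 with a standard error of 0.16. Against the control mean, the depleted samples were 0.96 and 0.68 higher on the log2 scale. Unlike miR-193b, which was highest in depleted replicate 2, miR-365 was highest in depleted replicate 1. Its log2 change had rank 25 of 80.

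The CT of miR-193 was 33.0 and 32.7 in the control samples and 32.3 and 31.9 in the c-Myc depleted samples. Its ΔCT was 14.1 and 13.6 in control and 13.4 and 13.1 in c-Myc depleted BASCs. The groups did not overlap, which held in this direction for 70 of the 263 detected miRNAs (26.6%). The gap of 0.17 cycles between the groups was smaller than the largest difference within a group, 0.47 cycles. The mean ΔCT was 13.8 ± 0.334 (SD, n = 2) in control and 13.3 ± 0.221 (SD, n = 2) in depleted cells, a log2 change of 0.56.

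**Figure D1:**
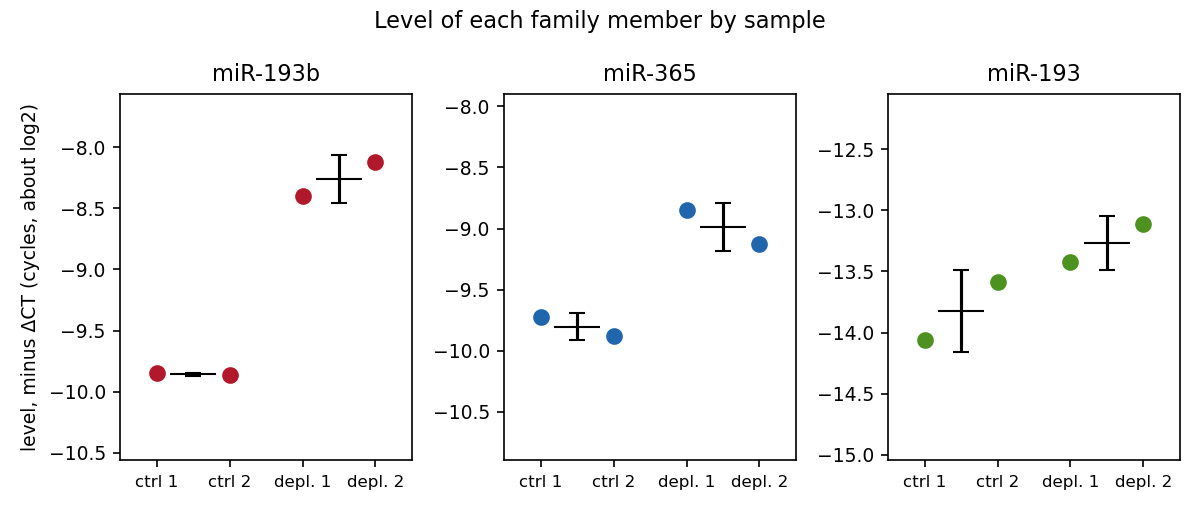
Level of miR-193b, miR-365 and miR-193 in each sample, as minus ΔCT in cycles (a higher point is more RNA). Points are the 2 control (ctrl) and the 2 c-Myc depleted (depl.) samples, black bars are the group mean with its SD, and the 3 panels span the same number of cycles, so the gap of 1.45 cycles for miR-193b can be compared with 0.60 for miR-365 and 0.17 for miR-193.

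The opposite strand of the Mir193a hairpin is read by a star assay on card B, with 2 wells per sample, which the naming rule leaves out. Its mature RNA, miR-193a-5p, has another seed, shown in capitals for comparison with the 3′ strand above.
miR-193a-5p: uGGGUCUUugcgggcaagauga
The ΔCT of miR-193* was 13.1 and 12.1 in control and 12.7 and 12.8 in c-Myc depleted BASCs. The depleted samples lay between the controls, and the log2 change was -0.16. The strands of the hairpin thus had changes of different sign after subtraction of U6, while without U6 the values were 0.71 for miR-193 and 0.56 for miR-193*. U6 itself had a log2 change of 0.15 beside the members and of 0.72 on card B, so values relative to U6 are not on 1 scale across the cards.

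The formula of the methods turned CT into copies per cell and takes every assay to be equally efficient, so that an order between miRNAs also carries the assays' efficiencies. miR-193b had 107 and 91.1 copies per cell in the control samples and 296 and 364 in the c-Myc depleted samples. miR-365 had 116 and 90.1 copies per cell in control and 218 and 182 in depleted cells. In control BASCs the ranges of these members overlapped, and in c-Myc depleted BASCs miR-193b was above miR-365 in both samples. miR-193 was far below both, with 5.85 and 7.0 copies per cell in control and 9.30 and 11.7 in depleted cells. Among the 263 detected miRNAs, ranked from the most abundant, miR-193b moved from 60 in control to 36 in depleted cells, miR-365 from 58 to 42 and miR-193 from 166 to 160. Fewer cells that express a miRNA and less of it per cell cannot be told apart in such bulk samples.

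Differences between members of the same card within a sample need no reference RNA, because U6 cancels. The CT of miR-365 minus that of miR-193b was -0.12 and 0.015 cycles in control and 0.45 and 1.0 cycles in c-Myc depleted BASCs. These members were thus nearly level in both controls, while miR-193b crossed the threshold earlier in both depleted samples. The groups did not overlap, but how many pairs of card A miRNAs separate in this way was not counted, so this is a description only. The mean difference was -0.055 ± 0.0984 cycles (SD, n = 2) in control and 0.72 ± 0.394 cycles (SD, n = 2) in depleted cells, which moved the ratio of miR-193b to miR-365 from 0.963 to 1.65. The move was 0.78 cycles. A move of this size was common on the card, since 1055 of the 2016 pairs (52.3%) of the 64 tested card A miRNAs differed in log2 change by at least as much.

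The members that share a seed, miR-193b and miR-193, lay further apart in c-Myc depleted than in control BASCs. The CT of miR-193 minus that of miR-193b was 4.21 and 3.72 cycles in control and 5.02 and 4.99 cycles in c-Myc depleted BASCs. Both depleted samples were above both controls, a separation whose share over all pairs was likewise not counted. At equal efficiency miR-193b was 15.6-fold above miR-193 in control and 32.1-fold above it in depleted cells. This move of 1.04 cycles includes miR-193, which did not pass the filter on level, and 764 of the 2016 pairs (37.9%) of tested card A miRNAs differed by at least as much. The CT of miR-193 minus that of miR-365 was 4.33 and 3.71 cycles in control and 4.57 and 3.98 cycles in depleted cells. Here the groups overlapped, so a move between miR-193 and miR-365 was not seen beyond the spread between samples.

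**Figure D2:**
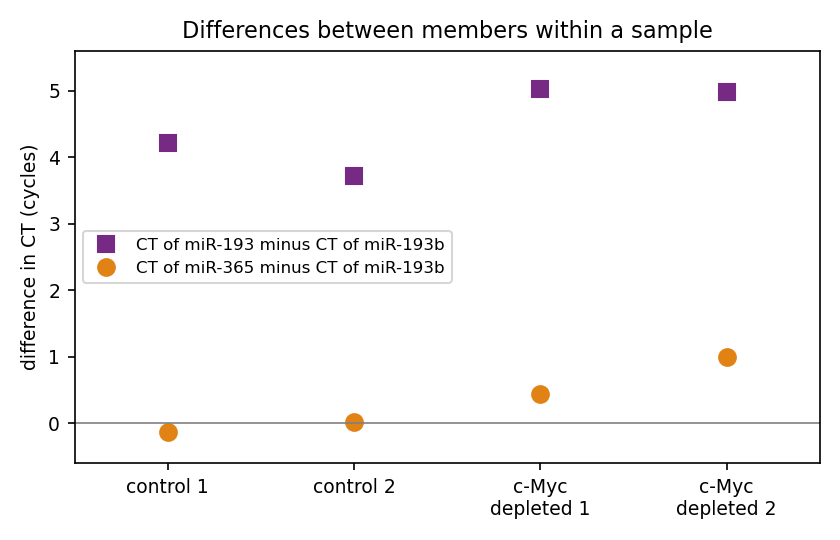
Difference in CT, in cycles, between members within each sample, with squares for miR-193 minus miR-193b and circles for miR-365 minus miR-193b. Both differences were higher in the 2 c-Myc depleted samples than in the 2 controls, and miR-365 minus miR-193b was near 0 in the controls. How many pairs of card A miRNAs separate in this way was not counted.

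Among all tested miRNAs, 26 of 80 (32.5%) were called by limma at an adjusted p below 0.05. Of the calls, 20 were higher after c-Myc depletion (25% of the tested miRNAs) and 6 were lower. Both miR-193b and miR-365 were among the 20 that were higher, and both depleted samples exceeded both controls in 32 of the 80 miRNAs (40%), in 29 of the 64 on card A (45.3%) and in 70 of the 263 detected (26.6%). With a fold change above 2 in place of the test, 15 of 80 (18.8%) were higher, miR-193b among them and miR-365 not. No statement on the members rests on these counts, because the members were chosen with this contrast known. The median log2 change was 0.055 over the 80 tested miRNAs (quartiles -0.24 and 0.86) and 0.23 over the 64 of card A. With only depleted replicate 1 left out 1 miRNA was called, and with only depleted replicate 2 left out 0 were called (5 at an unadjusted p below 0.05 in limma in each case), so that neither member was called then. miR-365 was also not called without either control, while the log2 changes without 1 sample were 1.46 to 1.74 for miR-193b and 0.68 to 0.96 for miR-365.

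**Figure D3:**
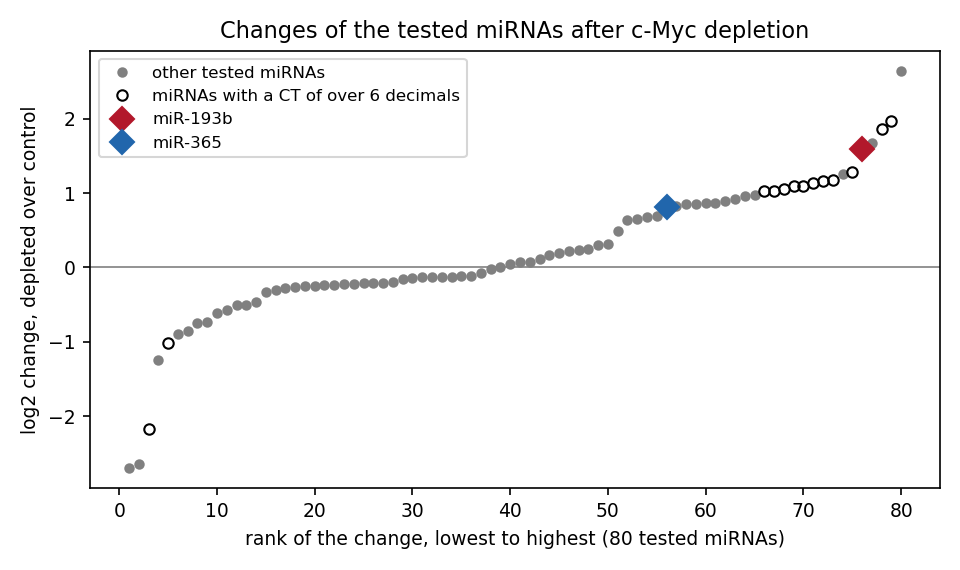
Log2 change (c-Myc depleted over control, relative to U6 of the same card) of the 80 tested miRNAs in rank order, with miR-193b and miR-365 as diamonds. Open circles are the 13 miRNAs with a CT of more decimals than the rest, of which 11 lie above miR-365 (0.82), around miR-193b (1.60), and 2 lie below 0.

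For 13 tested miRNAs, a CT in the table has more than the 6 decimals of the other values, and 12 of these 13 were among the 26 calls. All 12 CT values of the family have 6 decimals. Without these 13 miRNAs in the fit, 3 of 67 (4.48%) were called, 2 of them higher (2.99%), and miR-193b was among them and miR-365 was not, with both log2 changes as before. The ΔCT of miR-365 in control replicate 2 equalled that of miR-106b in depleted replicate 2 within a tolerance of 1e-05 cycles. The part of these features in the result was not tested.

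Without U6, the log2 changes were 1.75 for miR-193b, 0.97 for miR-365 and 0.71 for miR-193. The other small RNAs of card A did not move alike. The CT of snoRNA135 was 26.00 and 25.97 in control and 24.86 and 24.96 in c-Myc depleted BASCs, higher in RNA by 1.07 on the log2 scale, which is more than miR-365. snoRNA202, at 22.96 and 22.63 in control and 22.96 and 22.97 in depleted cells, had a change of -0.17 on this card. On card B, where no member is read, the log2 changes were -0.017 for snoRNA135 and 1.0 for snoRNA202. With both snoRNAs in place of U6 the log2 change was 1.30 for miR-193b, 0.52 for miR-365 and 0.26 for miR-193. With the median of card A as the reference, the values were 1.09, 0.31 and 0.055. All 3 members are on card A, so each of these references shifts them by the same amount and cannot change the order among them. Neither miR-193b nor miR-365 was called with the median of the card, and the median of all tested changes was then -0.18.

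**Figure D4:**
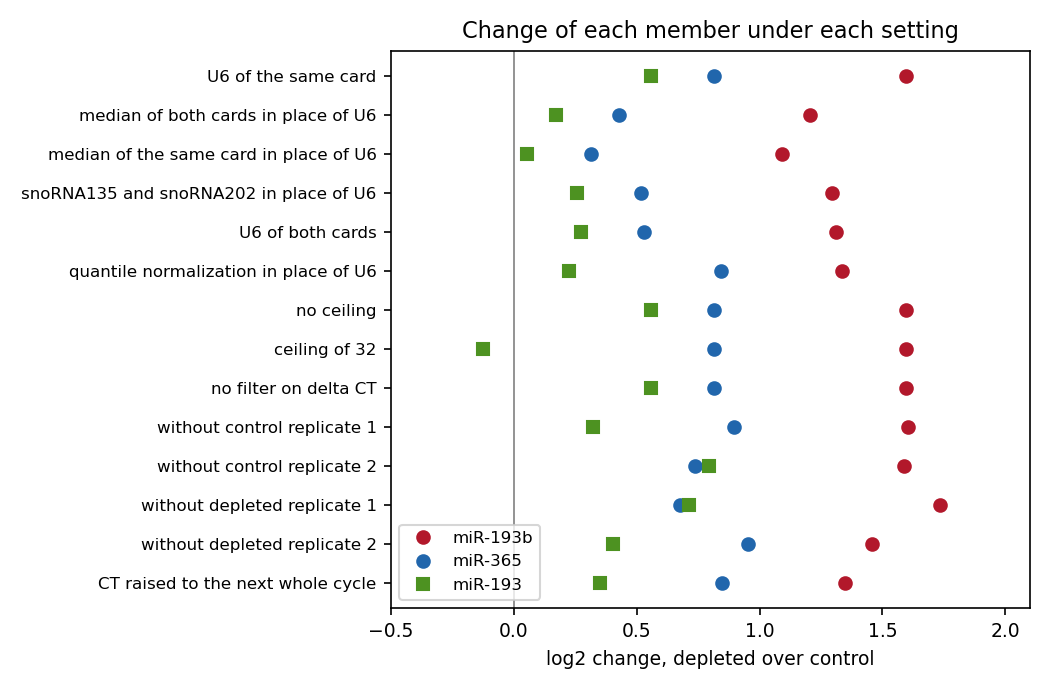
Log2 change (c-Myc depleted over control) of the 3 members under each setting of reference RNA, ceiling on CT, filter and samples. miR-193b stayed between 1.09 and 1.74, miR-365 between 0.31 and 0.96, and miR-193 fell below 0 (-0.12) with a ceiling of 32 cycles, which cuts off most of its own CT values.

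For each member, the tested miRNAs with the nearest profile were found by the root mean square distance, in cycles, between their minus ΔCT values over the 4 samples, each centred on its own mean, among the 79 other tested miRNAs. The nearest to miR-193b was miR-574-3p, at 0.0589 cycles, with a log2 change of 1.67. It was followed by miR-130a (0.194 cycles), miR-19b of the miR-17 cluster (0.200 cycles), miR-34c, a target of p53 (0.222 cycles), and miR-17 (0.231 cycles). The last 4 are among the miRNAs with more than 6 decimals. miR-130a (ΔCT 12.1 and 11.7 in control, 10.1 and 9.998 in depleted cells) and miR-34c (11.8 and 11.9, then 9.83 and 9.86) passed the filter only through depleted samples. The filter thus took part in choosing these neighbours. miR-365, the neighbour of miR-193b in the genome, had rank 18 by this measure, at 0.439 cycles.

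The nearest to miR-365 were miR-99a, at 0.0483 cycles and with a log2 change of 0.86, and miR-30c, at 0.0525 cycles and with a log2 change of 0.87. miR-214, known from mesenchymal cells, followed at 0.129 cycles, then miR-139-5p at 0.150 cycles and miR-222, which targets the cell cycle inhibitor Cdkn1b, at 0.151 cycles. Of these, miR-214 and miR-139-5p have CT values with more than 6 decimals. miR-193b had rank 32 from the side of miR-365. All nearest profiles of both members were on card A, and all share the same 4 samples and U6 wells, so the distances describe likeness in these samples only.

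Of 27 miRNAs known as repressed by c-Myc, 26 were detected and 13 tested, of which 4 were higher, 0 lower and 9 not called, beside 20 of 80 (25%) higher among all tested miRNAs. The median log2 change was 0.17, against 0.055 for all tested miRNAs and 0.23 for those of card A, which holds 12 of the 13. The 4 were miR-34a (1.17), miR-26a (1.10), miR-30c (0.87) and let-7i (0.85), and the lowest values were -0.31 for miR-30e and -0.27 for miR-16. miR-34a and miR-26a are among the miRNAs with more than 6 decimals. miR-34a passed the filter on level only through the depleted samples, with ΔCT of 9.80 and 9.79 against 11.1 and 10.9 in control. Its direction is thus not independent of its being tested. With ΔCT below 10 in all samples, 3 of the list were higher. The sign of the list's median was not stable, and it was above 0 under 11 of 17 alternatives. It was -0.19 without control replicate 1, -0.13 with the snoRNAs and -0.11 with U6 of both cards in place of U6 of the same card. With the median of both cards it was -0.22, with the median of the same card -0.33, and without the miRNAs with more than 6 decimals -0.12, each with 0 calls. The number of calls was also 0 without either depleted sample.

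Of 8 further miRNAs known to act on cyclin D1, the shared target of miR-193b and miR-365, 8 were detected and 4 tested. All 4 are on card A. Of these, miR-17 (1.17), miR-34a (1.17) and miR-20a (1.05) were higher, beside 25% of all tested miRNAs, and miR-16 had a log2 change of -0.27 and was not called. The 3 higher ones all have CT values with more than 6 decimals. The median was 1.11, against 0.23 for card A, and became -0.27 without those 3. miR-34a passed the filter on level only through the depleted samples, with ΔCT of 9.80 and 9.79 against 11.1 and 10.9 in control. Its direction is thus not independent of its being tested. With ΔCT below 10 in all samples, 2 of the list were higher. The number called was 0 without either depleted sample, and with the median of both cards, the median of the same card or quantile normalization. Cyclin D1 itself is an mRNA and was not measured on the cards.

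Markers of other cell types were read on the same cards. Fibroblast miRNAs were abundant, and their summed level was 3350 and 3332 copies per cell in control and 5008 and 4874 in c-Myc depleted BASCs. Of 6 assayed, all 6 were detected and 5 tested, of which 1, miR-214 (1.02), was higher. miR-214 has CT values with more than 6 decimals, and it was not called without either depleted sample. The list's median log2 change of 0.043 ranged from -0.46 with the median of the same card to 0.72 without depleted replicate 1, and was 0.59, 0.17 and 0.22 without control replicate 1, control replicate 2 and depleted replicate 2. The other high value was miR-199a-3p (0.82), and the lowest were miR-145 (-0.13) and miR-199a-5p (-0.90). The ΔCT of miR-199a-5p was 9.65 and 15.9 in control and 16.1 and 11.2 in depleted cells, so that the groups overlapped and its log2 change ran from -4.02 without control replicate 2 and -3.37 without depleted replicate 2 to 1.58 without depleted replicate 1 and 2.23 without control replicate 1. The summed level of the fibroblast markers, taken from CT without U6, was thus higher in both depleted samples, as were the copies per cell of the members. Relative to U6 the list's median log2 change was 0.043, and miR-145 and miR-199a-5p were below 0. The part of these markers in the result was not tested.

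Epithelial markers were at a low level, with 5 of 7 detected, 0 tested and a sum of 43.3 and 12.8 copies per cell in control and 8.59 and 10.1 in depleted cells. miR-203 and miR-205 were not detected, and no epithelial marker passed the filter on level, although the labels name lung stem cells. By immunostaining, the study reported the lung epithelial proteins SP-C and CCA in most colonies of its cultured BASCs, also after repeated passage. Neither protein is read on the cards. The endothelial markers, 2 of 2 detected, summed to 106 and 104 copies per cell in control and 28.7 and 26.0 in depleted cells, and the 1 tested, miR-126-3p, was lower (-2.18). This miRNA passed the filter only through the control samples, with ΔCT of 9.92 and 9.72 against 11.9 and 12.1 in depleted cells. Its direction is thus not independent of its being tested. It has CT values with more than 6 decimals, and without either depleted sample it was not called (-2.31 and -2.05). Blood markers, 5 of 5 assayed and detected with 0 tested, summed to 30.6 and 8.80 copies per cell in control and 7.28 and 17.2 in depleted cells. Of 4 muscle markers, 2 were detected and 0 tested, with sums of 4.68 and 3.76 copies per cell in control and 6.20 and 25.7 in depleted cells, and miR-1 and miR-133b were not detected. None of the endothelial, blood and epithelial sums was higher in both depleted samples than in both controls, while the low muscle sum was, and its part in the result was not tested.

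**Figure D5:**
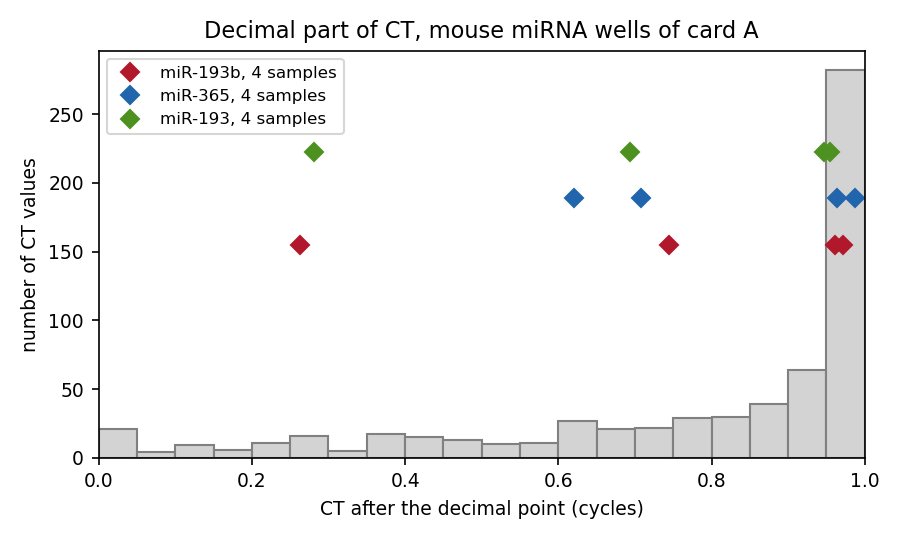
Number of CT values by their decimal part, in cycles, over the mouse miRNA wells of card A with a CT (bars), with the 4 values of each member as diamonds, whose height carries no value. Of 652 CT values, 282 (43.3%) lay within the last 0.05 of a cycle, as did 5 of the 12 values of the family.

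CT values on card A clustered just below whole cycles, with 282 of 652 (43.3%) having a decimal part of 0.95 or more. Of the 12 values of the family, 5 (41.7%) did so. When each miRNA CT was raised to the next whole cycle, the log2 change was 1.35 for miR-193b, 0.85 for miR-365 and 0.35 for miR-193, and miR-193b was then not called. The part of this clustering in the result was not tested.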

How the data were processed

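The authors deposited 1 table of CT values, in PCR cycles and not normalized, from 768 wells on 2 cards per sample, exported from RQ manager. The submitters' processing notes name Partek 6.4. From the deposited CT, wells without a CT or above 35 were set to 35, wells of an assay were averaged, and U6 of the same card was subtracted. Minus ΔCT was fitted with lmFit and eBayes of limma 3.58.1 (R 4.3.3), adjusted by Benjamini-Hochberg over all 80 tested miRNAs, and was tested on simulated data. Tables and plots used Python 3.11.15, numpy 2.4.6, pandas 2.3.3 and matplotlib 3.10.9. With 2 samples per group an exact two-sided permutation test cannot go below 0.333. The family, the lists and the tests were chosen with earlier results of these data known. The miRNAs named were the members, other assays of miR-193 or miR-365, those sharing a seed, the 5 nearest profiles of each member, the 2 highest and 2 lowest tested of each list, the reference RNAs, and any assay with a ΔCT equal to a member's. let-7i, as 1 of 4 calls of its list, and the markers not detected were named after their values were seen. The mRNA arrays of the study were not used here. The alternatives that used miR-193, whole cycles or a crossed pairing were chosen after seeing the data.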

Additional observations from a re-analysis of the deposited data

How the results depend on the processing

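The log2 changes of miR-193b (1.60) and miR-365 (0.82) were above 0 under all 18 alternatives run for each. Alternatives that changed only the ceiling, the filter, the miRNAs in the fit or the test left both values unchanged by construction. Their sign was thus fixed in advance there, and only the other references, whole cycles and left-out samples could move it. As a description, miR-193b was called under 9 and miR-365 under 5 of the 18. Calls of both were lost with the median of both cards (1.21 and 0.43), the median of the same card (1.09 and 0.31), quantile normalization (1.33 and 0.84), no filter on ΔCT, one-way analysis of variance per miRNA and the replicate block (1.60 and 0.82 in these 3). miR-193b was also not called with whole cycles (1.35), and miR-365 not with the snoRNAs (0.52), U6 of both cards (0.53) or without the miRNAs with a CT of over 6 decimals (0.82). Leaving out 1 sample gave 1.46 to 1.74 and 0.68 to 0.96. The log2 change of miR-193 was 0.17, 0.055, 0.26, 0.27 and 0.23 with the median of both cards, the median of the same card, the snoRNAs, U6 of both cards and quantile normalization, and -0.12 with a ceiling of 32, which sets its higher CT values to 32. The change of the difference between miR-365 and miR-193b stayed between 0.49 and 1.06 cycles over 8 alternatives.

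The 26 calls, 76.9% of them higher, became 3 with the median of both cards (33.3% higher), 1 with the median of the same card (0% higher), 14 with U6 of both cards, 4 with quantile normalization (0% higher), 2 without a filter, 17 with ΔCT below 10 in all samples, 3 without the miRNAs with a CT of over 6 decimals and 3 with analysis of variance. With the snoRNAs 66.7% of the 18 calls were higher, and with whole cycles 88.5% of 26. Leaving out 1 sample gave 0 to 25 calls. The replicate block gave 0 calls (26 at an unadjusted p below 0.05). Same-numbered samples deviated in opposite directions (correlation -0.436 over 80 miRNAs), and the crossed pairing gave 33 calls. The median change of the tested miRNAs, 0.055 with U6 of the same card, was -0.27, -0.18, -0.18 and -0.17 with the median of both cards, the median of the same card, the snoRNAs and U6 of both cards. Apart from the alternatives whose construction sets the value, the cause was not tested. Each member rests on 1 well per sample, and miR-193 lies within a few cycles of the ceiling of 35.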

Other observations

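The promoter window of Gm32817, a gene that, like Gm53058, spans Mir193b and Mir365-1, is shown because c-Myc binds E-boxes. This window lies upstream of both miRNA genes. It is from RefSeq (GRCm38.p6), chr16:13447702-13448001 (+), 250 bases before and 50 bases after the annotated start, with the bases after the start in capitals.
Gm32817: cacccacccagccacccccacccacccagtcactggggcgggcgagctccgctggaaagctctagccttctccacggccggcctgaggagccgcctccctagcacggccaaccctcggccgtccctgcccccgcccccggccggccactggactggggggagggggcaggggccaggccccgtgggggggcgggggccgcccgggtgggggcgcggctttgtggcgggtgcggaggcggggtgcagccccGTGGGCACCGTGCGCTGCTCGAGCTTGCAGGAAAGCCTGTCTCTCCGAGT
Its GC content was 76.7%, against a median of 52.7% over 32817 promoter windows of the same length, and 97.3% of them were lower. The E-box CACGTG, searched on both strands, was not in this window and was in 7.15% of all promoter windows. The wider motif CANNTG, which includes CACGTG, was also not in it and was in 72.3% of all. At this locus, these letters were searched in this window only, and the promoter of Gm53058 was not looked up. Binding of c-Myc was not measured in these data.

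The share of CT values with a decimal part of 0.95 or more differed between samples. On card A it was 45.9% and 44.1% in the control samples and 30.2% and 51.1% in the c-Myc depleted samples. On card B it was 20.8% and 34.2% in control and 12.3% and 38.9% in depleted samples.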
